A study of Homo sapiens with 9 samples.

Results

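ECE1 and 7 further genes of peptidase families were followed in SH-Sy5y cells transfected with a mimic of miR-1229-3p. The 7 are ECE2, ECEL1, MME, IDE, NLN, THOP1 and PREP. Apart from ECEL1, they encode enzymes that cut neuropeptides or related short peptides. ECEL1 is included by family membership, and no peptide substrate of it is assumed here. Together with ECE1 these are 8 of the 14943 genes with counts. ECE1 was chosen by its measured dose response in these libraries, so its own values are a description and carry no test. The other 7 were added as relatives or as enzymes that act on the same kind of peptide. They too were chosen with earlier results of these data known, so their p-values are not those of genes picked in advance. SH-Sy5y cells are an established line from a human neuroblastoma. They were harvested 48 h after transfection in 3 groups of 3 libraries: a negative control oligonucleotide alone (Ctrl., 40 pmol), 20 pmol of it with 20 pmol of mimic (10 nM), and 40 pmol of mimic with 0 pmol of it (20 nM). The loss of the control oligonucleotide and the higher dose of mimic therefore cannot be told apart in any comparison of these groups. RNA of a pair of wells was pooled where possible, and the labels do not say that replicates were separate cultures, so the p-values measure the spread between these libraries, which may be technical.

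Neuropeptides are cut from precursors in the secretory pathway, released, and ended by peptidases at the cell surface, in endosomes or in the cytosol. ECE1, ECE2, ECEL1 and MME belong to the neprilysin family of membrane-bound zinc peptidases. ECE1 turns big endothelin into endothelin and breaks down peptides such as bradykinin, and MME (neprilysin) degrades enkephalins and amyloid-beta. IDE is the zinc enzyme that degrades insulin, NLN (neurolysin) and THOP1 (thimet oligopeptidase) are related zinc enzymes that cut peptides such as neurotensin, and PREP is a serine enzyme that cuts after proline. A microRNA binds messages through its seed, bases 2 to 8 from its 5′ end, and usually lowers those that carry a match in the 3′ untranslated region (UTR).

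The mature microRNA and the 7-mer and 8-mer seed matches in the UTRs of the peptidases are shown beside their values, with 1 of 3 for PREP. The 7-mers of NLN and ECE1 match bases 2 to 8 of the microRNA. That of PREP matches bases 2 to 7 and adds an A. The microRNA (RefSeq, GRCh38.p14, chr5:179798278-179798300, minus strand) has its seed in capitals, and each 30-base UTR window (GENCODE 44, GRCh38.p14) has the matched bases in capitals.
miR-1229-3p: cUCUCACCacugcccucccacag
NLN, 8-mer, chr5:65826590-65826619, plus strand: tataaatgtgtGGTGAGAAtaaaagcaaca
NLN, 7-mer, chr5:65825648-65825677, plus strand: aaagctaataaGGTGAGAggtggatatctg
ECE1, 7-mer, chr1:21219053-21219082, minus strand: gagccctgcggGGTGAGActgtgtcagaga
PREP, 7-mer, chr6:105277642-105277671, minus strand: tggagttttctGTGAGAAtaaagcatttca

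GTGAGA pairs with bases 2 to 7 of the microRNA (6-mer), GGTGAGA with bases 2 to 8 and GTGAGAA adds a final A (7-mers), while GGTGAGAA has both additions (8-mer). These were searched on the sense strand of the longest annotated UTR of each gene, with each position given its longest match. Besides 6-mers, NLN held 1 8-mer and 1 7-mer in a UTR of 6368 bases. PREP held 3 7-mers in 4926 bases, and ECE1 held 1 7-mer, 884 bases into a UTR of 2708 bases. Thus 3 of the 8 peptidases held a 7-mer or 8-mer, against 25.2% of the 13953 genes with a UTR of at least 50 bases. MME and IDE held 6-mers alone, 2 each, those of IDE in a transcript annotated for nonsense-mediated decay. No match was found in the UTRs of ECE2, THOP1 and ECEL1, the last of which is 326 bases long. A match is a description of letters and not a measured binding site.

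Each library held 17.4 to 28.2 M estimated counts. Levels are CPM (counts of a gene per 1000000 counts of its library) scaled by TMM. Fold changes come from an edgeR model with 1 surrogate variable, and a gene was called where its Benjamini-Hochberg adjusted p over all genes was below 0.05. The third 20 nM library stood apart on the first principal component, at 47.4 against -17.1 to 7.72 in the other 8. All 12 neuroblastoma markers were measured, with a summed level of 6853 to 8154 CPM over all libraries, although TH was at 0.598 CPM in Ctrl. Of 6 endothelial markers 1 was measured, at 0.851 CPM or less, and 9 of 10 mesenchymal markers summed to 156 to 227 CPM.

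ECE1 (ENSG00000117298, chr1:21217247-21345572, minus strand) stood highest at 20 nM, and most of its rise came after 10 nM. Its level was 81.5, 88.3 and 88.1 CPM in Ctrl., 97.7, 98.9 and 107.8 CPM at 10 nM, and 153.1, 158.2 and 186.2 CPM at 20 nM. The 3 groups did not overlap in any pair. Over all genes, groups did not overlap for 20.0% (10 nM against Ctrl.), 28.9% (20 nM against Ctrl.) and 14.2% (20 nM against 10 nM). The mean was 86.0 ± 3.85 CPM in Ctrl., 101 ± 5.52 CPM at 10 nM and 166 ± 17.8 CPM at 20 nM (SD, n = 3 each). The mean CPM thus rose by 15.5 over the first step and by 64.4 over the second, which was 80.6% of the whole rise. The fitted log2 fold change was 0.21 (SE 0.045) at 10 nM against Ctrl., 0.83 (SE 0.049) at 20 nM against Ctrl. and 0.62 (SE 0.046) at 20 nM against 10 nM. Without the third 20 nM library the change at 20 nM against Ctrl. was 0.85 and that against 10 nM 0.63. Same-numbered libraries gave ratios of 1.57, 1.60 and 1.73 for 20 nM to 10 nM, and 1.20, 1.12 and 1.22 for 10 nM to Ctrl.

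**Figure D1:**
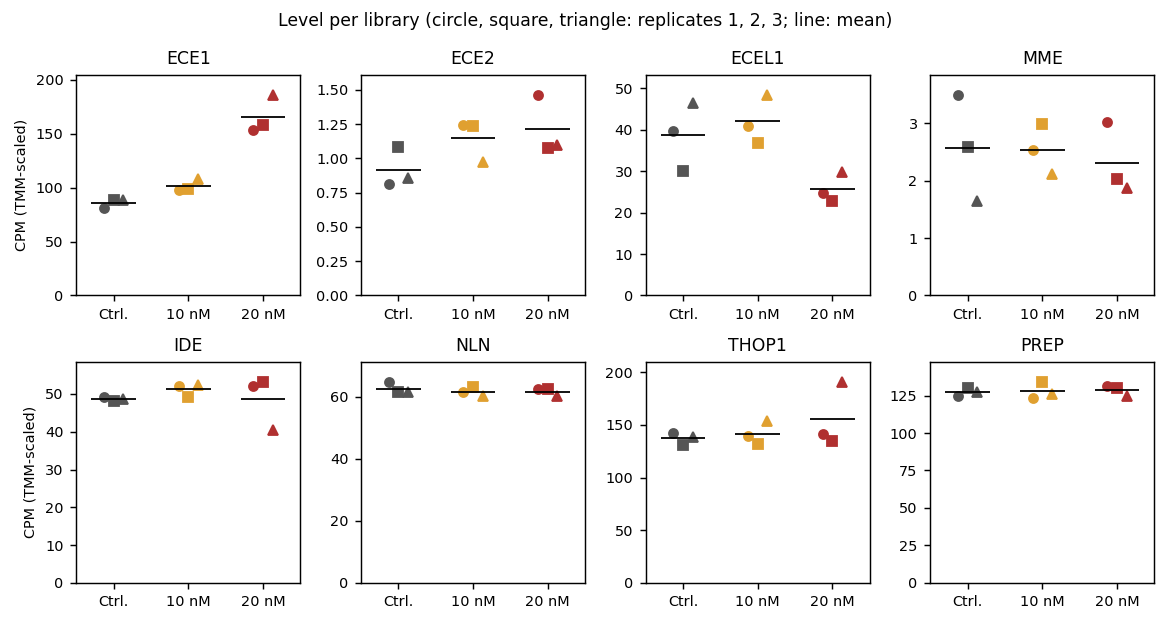
Level of each peptidase message (y axis, TMM-scaled CPM from 0) in Ctrl., 10 nM and 20 nM (x axis), with a point per library and a line at the group mean. ECE1 lies between 153.1 and 186.2 CPM at 20 nM, above all other libraries, and ECEL1 lies between 22.8 and 29.9 CPM at 20 nM, below all other libraries.

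ECEL1 (ENSG00000171551, chr2:232479827-232487834, minus strand), a neuronal member of the neprilysin family, fell at 20 nM and did not pass the test at 10 nM. It measured 39.7, 30.1 and 46.3 CPM in Ctrl., 40.9, 36.7 and 48.5 CPM at 10 nM, and 24.6, 22.8 and 29.9 CPM at 20 nM. The 20 nM libraries overlapped neither Ctrl. nor 10 nM, while Ctrl. and 10 nM overlapped. Its mean was 38.7 ± 8.18 CPM in Ctrl., 42.0 ± 5.96 CPM at 10 nM and 25.8 ± 3.67 CPM at 20 nM (SD, n = 3 each). The log2 fold change was -0.75 (SE 0.152, edgeR adjusted p = 0.00614) at 20 nM against Ctrl., -0.82 (SE 0.144, edgeR adjusted p = 0.00817) at 20 nM against 10 nM, and 0.07 (edgeR adjusted p = 0.858) at 10 nM against Ctrl. Same-numbered ratios of 20 nM to 10 nM were 0.602, 0.621 and 0.616, lower in 3 of 3 sets. Without the surrogate variable the adjusted p became 0.0506 against Ctrl. and 0.112 against 10 nM, and without the second 20 nM library it became 0.0541 against 10 nM. Leaving out the third 20 nM library gave -0.71 against Ctrl. (edgeR adjusted p = 0.000814) and -0.77 against 10 nM (edgeR adjusted p = 0.00235). A fit that blocked on the replicate number instead of using the surrogate variable gave 0.00238 and 0.00521.

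The 2 steps of ECEL1 differed by -0.89 on the log2 scale (SE 0.223), with an unadjusted p of 0.00167 in the edgeR model and an adjusted p of 0.372, so a difference between its steps did not pass the test. Across all genes 7 passed it (0.0468%), and 0 of the 7 peptidases other than ECE1, with ECEL1 among them, did.

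Among the 7 peptidases other than ECE1, 0 were called at 10 nM, where 0.649% of all genes were called. At 20 nM against Ctrl. 1 was called, with 13.9% of all genes, and at 20 nM against 10 nM 1 was called, with 2.79% of all genes. In both cases this was ECEL1. Groups did not overlap for IDE at 10 nM (20.0% of all genes) and for ECEL1 at 20 nM against Ctrl. (28.9%) and against 10 nM (14.2%). The comparisons share the Ctrl. or the 10 nM or 20 nM libraries and are not independent. With the replicate block 3 genes in all were called at 10 nM in place of 97.

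**Figure D2:**
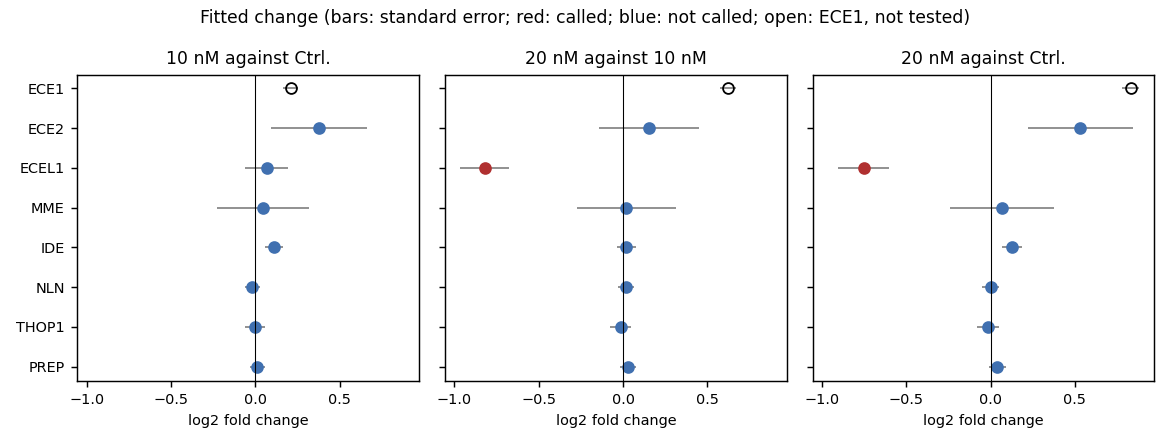
Fitted log2 fold change (x axis) of each peptidase (y axis) in 3 comparisons, with bars of 1 standard error. ECEL1 is called at 20 nM against Ctrl. (-0.75) and against 10 nM (-0.82), ECE1 is drawn open because it was not tested, and NLN, THOP1 and PREP lie near 0 in each panel.

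ECE2 and MME, the other members of the neprilysin family, were expressed at low levels. ECE2, an endothelin-converting enzyme that works at acidic pH, had 17 to 35 estimated counts per library. Its mean was 0.917 ± 0.144 CPM in Ctrl., 1.15 ± 0.155 CPM at 10 nM and 1.21 ± 0.220 CPM at 20 nM (SD, n = 3 each). The log2 fold change at 20 nM against Ctrl. was 0.53 with a 95% interval of -0.14 to 1.21 (edgeR adjusted p = 0.298), an interval that includes both no change and the fitted change of ECE1. ECE2 lies within the readthrough gene EEF1AKMT4-ECE2 on the same strand, and reads of the 2 cannot be told apart here. MME averaged 2.58 ± 0.930 CPM in Ctrl., 2.54 ± 0.435 CPM at 10 nM and 2.30 ± 0.623 CPM at 20 nM (SD, n = 3 each). Its interval at 20 nM against Ctrl. ran from -0.60 to 0.73 on the log2 scale (edgeR adjusted p = 0.922).

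NLN and PREP gave narrow intervals around 0. NLN measured 64.8, 61.6 and 61.7 CPM in Ctrl., 61.6, 63.2 and 60.1 CPM at 10 nM, and 62.4, 62.5 and 60.1 CPM at 20 nM. The 3 groups overlapped throughout. Its log2 fold change at 20 nM against Ctrl. was 0.00 with a 95% interval of -0.11 to 0.11 (edgeR adjusted p = 0.995). PREP measured 125.1, 129.8 and 127.4 CPM in Ctrl., 123.2, 134.2 and 126.3 CPM at 10 nM, and 131.5, 130.3 and 124.6 CPM at 20 nM. Its log2 fold change at 20 nM was 0.04 with an interval of -0.07 to 0.15 (edgeR adjusted p = 0.671). NLN overlaps SGTB on the opposite strand, and whether the counting used strand is not stated.

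THOP1 and IDE varied mainly in the third 20 nM library. THOP1 measured 142.1, 131.3 and 138.2 CPM in Ctrl., 139.6, 132.0 and 154.0 CPM at 10 nM, and 141.2, 135.3 and 191.0 CPM at 20 nM. Its fitted log2 fold change at 20 nM against Ctrl. was -0.01 (edgeR adjusted p = 0.920), and 0.01 without that library, but 0.18 without the surrogate variable (edgeR adjusted p = 0.357) and 0.17 with the replicate block (edgeR adjusted p = 0.219). The mean CPM was 137 ± 5.49 in Ctrl. and 156 ± 30.6 at 20 nM (SD, n = 3 each). IDE measured 49.1, 48.2 and 48.7 CPM in Ctrl., 52.0, 49.3 and 52.3 CPM at 10 nM, and 52.1, 53.2 and 40.4 CPM at 20 nM. Its 10 nM libraries all lay above Ctrl. The fitted log2 fold change of IDE there was 0.11, which did not pass the test (edgeR adjusted p = 0.375), and 0.073 without the surrogate variable. At 20 nM against Ctrl. its log2 fold change was 0.13 (edgeR adjusted p = 0.175), and 0.11 without the third library. It was -0.0037 without the surrogate variable and -0.0094 with the replicate block, so its direction turned, and the mean CPM was 48.7 ± 0.452 in Ctrl. and 48.6 ± 7.07 at 20 nM (SD, n = 3 each).

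The share that ECE1 took of the summed CPM of the 8 messages was 16.1 to 17.9% in Ctrl., 18.8 to 19.5% at 10 nM and 26.9 to 29.3% at 20 nM. The other 7 together summed to 405 to 425 CPM in Ctrl., 419 to 444 CPM at 10 nM and 407 to 449 CPM at 20 nM, ranges that overlap. These sums are not divided by length and describe reads, not molecules.

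**Figure D3:**
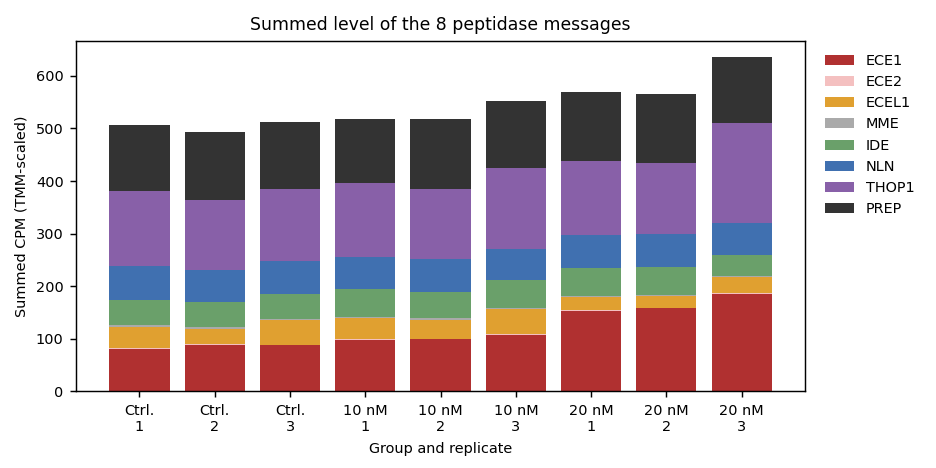
Summed TMM-scaled CPM of the 8 peptidase messages (y axis, from 0) in each library (x axis), with a colour per gene. The ECE1 part grows from 16.1 to 17.9% of the bar in Ctrl. to 26.9 to 29.3% at 20 nM, and the other 7 together stay between 405 and 449 CPM.

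Per kilobase of the MANE Select transcript, THOP1 had the highest level in Ctrl. at 28.8 ± 1.15 CPM per kb (SD, n = 3). PREP followed at 17.6 ± 0.326 and ECE1 at 16.97 ± 0.760 CPM per kb, and these neighbours did not differ beyond their spread. ECEL1 came next at 13.5 ± 2.85 CPM per kb, which overlapped ECE1. IDE stood at 8.26 ± 0.0766, NLN at 7.25 ± 0.213, MME at 0.456 ± 0.164 and ECE2 at 0.284 ± 0.0447 CPM per kb. At 20 nM ECE1 reached 32.7 ± 3.52 CPM per kb, beside 32.7 ± 6.43 for THOP1. With the union of all annotated exons as the length, ECEL1 (12.99) stood above ECE1 (11.8) in Ctrl.

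The genes whose log2 CPM ran most like that of ECE1 over the 9 libraries were EMC10, a subunit of the endoplasmic reticulum membrane complex (Pearson r = 0.996), ELMO1, a regulator of Rac signalling (0.992), and PCTP, a phosphatidylcholine transfer protein (0.990). PPIF, the mitochondrial cyclophilin, and PMM2, a phosphomannomutase of glycosylation, followed at 0.990 each. The ranking covered 13682 genes. The 9 libraries share their 3 dose groups, so r describes changes between these groups as well as differences within them. Among the peptidases r was highest for THOP1 (0.588) and lowest for ECEL1 (-0.691). EMC10 measured 138 ± 11.1 CPM in Ctrl., 163 ± 12.0 CPM at 10 nM and 277 ± 22.8 CPM at 20 nM (SD, n = 3 each).

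Other genes of the peptide pathways were counted in lists, for 20 nM against Ctrl., where 13.9% of all genes were called. Of 18 further family relatives, 14 were measured and 2 rose, with a median log2 fold change over the list of 0.11 against 0.00 over all genes. These were PMPCB, a subunit of the mitochondrial processing peptidase (0.31, edgeR adjusted p = 0.00109), and APEH, which removes acetylated amino acids (0.25, edgeR adjusted p = 0.0115). PMPCB was also called at 20 nM against 10 nM (0.21, edgeR adjusted p = 0.0243), a call lost with the replicate block (0.108) and without the surrogate variable (0.152). APEH kept its call at 20 nM against Ctrl. in 15 of 18 alternative settings. DPP8 (0.17) and MIPEP (0.25) did not pass the test.

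Of 22 other peptidases of peptide hormones and neuropeptides, 19 were measured, and 3 rose and 1 fell (list median 0.01). ACE, which makes angiotensin II and degrades bradykinin, rose from 49.7 ± 2.68 CPM in Ctrl. to 65.3 ± 2.42 CPM at 20 nM (SD, n = 3 each; log2 fold change 0.43, edgeR adjusted p = 0.00057). DPP7 rose by 0.32 (edgeR adjusted p = 0.000818) and PRCP by 0.30 (edgeR adjusted p = 0.0144), although for PRCP the adjusted p was 0.102 with the replicate block. NPEPPS, the puromycin-sensitive aminopeptidase, fell by 0.19 on the log2 scale (edgeR adjusted p = 0.0196). Without the third 20 nM library all 4 were called. Without the first, PRCP (edgeR adjusted p = 0.0581) and NPEPPS (edgeR adjusted p = 0.0744) lost their calls, and without the second PRCP did (edgeR adjusted p = 0.107). Of 18 alternative settings, PRCP kept its call in 14 and NPEPPS in 16. ACE and DPP7 were also called at 10 nM (edgeR adjusted p = 0.0243 and 0.0281), where the replicate block gave 0.212 and 0.324.

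Of 15 genes of precursor processing, 13 were measured, and 4 rose and 1 fell (list median 0.03). FURIN, a proprotein convertase, rose by 0.44 (edgeR adjusted p = 0.00249), and CTSL, cathepsin L, by 0.41 (edgeR adjusted p = 0.0031). CPD, a carboxypeptidase, rose by 0.20 (edgeR adjusted p = 0.00903) and PCSK7 fell by 0.16 on the log2 scale (edgeR adjusted p = 0.0267), but the replicate block gave 0.0641 and 0.607. For PCSK7 the log2 fold change shrank to -0.056 with the block and -0.052 without the surrogate variable. Its 20 nM libraries, at 89.1 to 108.3 CPM, spanned those of Ctrl., at 98.3 to 101.0 CPM. The PCSK7 call held in 13 of 18 alternative settings. PCSK7 was also called at 10 nM (-0.25, edgeR adjusted p = 0.0117), where the block gave 0.39. CPE, carboxypeptidase E, was the remaining call (0.16, edgeR adjusted p = 0.0414) and is named after its value was seen. It kept that call in 11 of 18 alternative settings. Without the surrogate variable its log2 fold change was larger, at 0.33, but not called (edgeR adjusted p = 0.0728). With the replicate block it was 0.32 and called (edgeR adjusted p = 0.0399).

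Of 29 peptide precursors, 13 were measured, and 4 rose and 1 fell (list median 0.09). GAL, the galanin precursor, rose from 82.3 ± 1.24 CPM in Ctrl. to 109 ± 9.35 CPM at 20 nM (SD, n = 3 each; log2 fold change 0.49, edgeR adjusted p = 3.2e-05). VIP, at 1.12 ± 0.180 CPM in Ctrl., rose by 1.37 (edgeR adjusted p = 0.0054), with 0.0562 without the surrogate variable and a call in 14 of 17 alternative settings. APP, the amyloid precursor, rose by 0.24 (edgeR adjusted p = 0.0136) and kept its call in 16 of 18 alternative settings. IGF2, a substrate of IDE, fell from 401 ± 62.2 to 273 ± 33.8 CPM (SD, n = 3 each; log2 fold change -0.69, edgeR adjusted p = 0.00343). CALCB was low, at 3.03 ± 0.485 CPM in Ctrl. and 4.90 ± 0.846 CPM at 20 nM (SD, n = 3 each). It was the remaining call (0.68, edgeR adjusted p = 0.0458), named after its value was seen. It kept that call in only 8 of 17 alternative settings, with an adjusted p of 0.069 with DESeq2, 0.0506 without the surrogate variable and up to 0.328, the last without the second 20 nM library. GAL was also called at 10 nM (0.22, edgeR adjusted p = 0.0323), where the block gave 0.443. GAL and IGF2 were called at 20 nM against 10 nM as well (edgeR adjusted p = 0.00449 and 0.0204), but both calls were lost with the replicate block (0.196 and 0.0967) and without the surrogate variable (0.300 and 0.235).

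Of 31 peptide receptors, 16 were measured, and 4 rose and 1 fell (list median 0.30). BDKRB2, the bradykinin receptor, rose from 5.07 ± 0.153 CPM in Ctrl. to 9.45 ± 0.536 CPM at 20 nM (SD, n = 3 each; log2 fold change 0.93, edgeR adjusted p = 0.000753). ADCYAP1R1, the receptor of PACAP, rose by 0.44 (edgeR adjusted p = 0.00311) and NPY2R, a neuropeptide Y receptor, by 0.77 (edgeR adjusted p = 0.00311). At 20 nM against Ctrl. NPY2R kept its call in 17 of 18 alternative settings, losing it without the first 20 nM library (edgeR adjusted p = 0.0584). SORT1, which also binds neurotensin, rose by 0.24 (edgeR adjusted p = 0.015) and kept its call in 14 of 18 settings. The adjusted p of SORT1 was 0.0635 under the replicate block and 0.0855 without the surrogate variable. NPR2 was the remaining call (-0.50, edgeR adjusted p = 0.0345), named after its value was seen. It kept that call in 12 of 18 alternative settings, with an adjusted p of 0.210 without the second 20 nM library. NPY2R was also called at 20 nM against 10 nM (0.57, edgeR adjusted p = 0.0421), but not without the third 20 nM library (0.0763), with the replicate block (0.113) or without the surrogate variable (0.370). The block called 7 genes each among precursors and receptors. In the order of the lists above, 2, 5, 5, 6 and 8 genes were called without the third 20 nM library and 2, 3, 2, 3 and 4 without the surrogate variable.

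**Figure D4:**
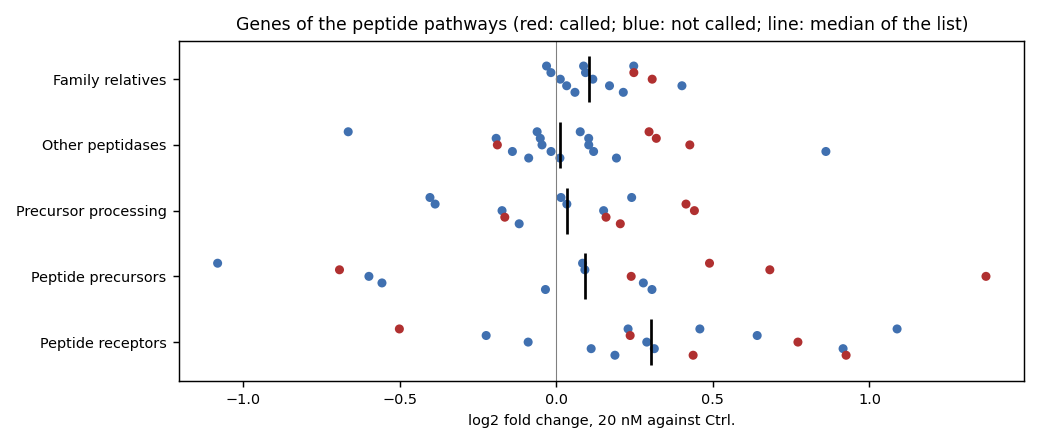
Log2 fold change at 20 nM against Ctrl. (x axis) of the measured genes of 5 lists (y axis), with a point per gene, called genes in red and a line at the list median. Called genes lie on both sides of 0 in 4 of the 5 lists, and the 2 called family relatives are both higher.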

How the data were processed

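Per the labels and the study's methods, the authors mapped polyadenylated RNA reads with Salmon onto GRCh38.p13, summed them to genes by symbol and filtered low genes. The deposited table holds estimated counts (88.8% of values not whole) for 14943 genes in 9 libraries of 17.4 to 28.2 M counts. The authors' tables of fold changes and p-values and their log2 table corrected for surrogate variables were not used.

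The rounded values entered edgeR 4.0.16 under R 4.3.3 (TMM, quasi-likelihood test, Benjamini-Hochberg over all genes, threshold 0.05) with 1 surrogate variable from sva 3.50.0. The filter removed 0 genes. DESeq2 1.42.0 was an alternative. Scripts were tested on simulated data. Deviations of same-numbered libraries from their group means correlated at 0.177, 0.142 and 0.185 between Ctrl. and 10 nM. The correlations were 0.116, 0.107 and 0.116 between Ctrl. and 20 nM, and 0.174, 0.029 and 0.176 between 10 and 20 nM. They were thus positive but weak in each comparison. The numbers come from the sample titles, and the main model did not block on them.

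The members and lists were chosen with earlier results of these data known. Named genes were the members, the 5 genes most like ECE1 and up to 4 per list with the smallest p at 20 nM. Gene models came from GENCODE 44, where 14105 genes were found by identifier and a further 754 by symbol, leaving 84 unmatched. The longest annotated 3′ UTR was searched, as planned. The search was also run on MANE Select UTRs, and, chosen after seeing the data, on transcripts typed as protein coding.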

Additional observations from a re-analysis of the deposited data

How the results depend on the processing

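Of 1234 values under alternative settings, 1113 kept their side of the threshold or stayed close, 67 moved, 51 lost and 3 gained a call, and 0 called values changed sign. The setting without a filter repeated the main fit, because the filter removed 0 genes. It is counted among the settings here and above, and adds no support of its own. The fitted rise of ECE1 at 20 nM against Ctrl. stayed within 0.79 and 0.95 (log2) over 18 settings, with 0.95 without the surrogate variable and 0.94 with the replicate block. ECEL1 was called at 20 nM against Ctrl. in 17 of 18 settings and against 10 nM in 16 of 18. Without the surrogate variable 0 of the 7 peptidases other than ECE1 were called in these comparisons, and without single libraries 0 to 1 against 10 nM.

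Genes called in all were 97 at 10 nM, 2074 at 20 nM, 417 at 20 nM against 10 nM and 7 for the difference between steps. These became 5, 954, 67 and 2 without the surrogate variable, and 218 and 20 with DESeq2 at 10 nM and for the steps. The replicate block gave 3, 124 and 2 at 10 nM, at 20 nM against 10 nM and for the steps, and 2039 at 20 nM. Leaving out single libraries gave 34 to 160, 1074 to 2656, 111 to 462 and 4 to 8. Leaving out the third 20 nM library with the number of surrogate variables estimated again, chosen after seeing the data, gave 1318, 4370, 1495 and 146. There, and with 1 more surrogate variable, 1 of the other 7 peptidases, ECEL1, passed the difference between steps (edgeR adjusted p = 0.000368 and 0.0417). The causes were not tested.

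Of the 5 genes most like ECE1, 0 were among the top 5 by Spearman's rho, and 1 to 5 when single libraries were left out. With the union of exons as length, CPM per kb in Ctrl. became 11.8 for ECE1, 0.194 for ECE2, 0.261 for MME, 2.90 for IDE, 5.73 for NLN, 18.5 for THOP1 and 14.3 for PREP.

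The UTR definition did not move the count of 3 peptidases with a 7-mer or 8-mer, but moved the share of all genes, 25.2% of 13953 with the longest annotated UTR, 21.1% of 13813 with MANE Select UTRs and 22.6% of 13778 with protein-coding transcripts alone. The 6-mers of IDE were found in the first of these only, so 5, 4 and 4 peptidases held any match. ECE2 and MME had few counts, which widened their intervals.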
